A study of Mus musculus with 6 samples.

Results

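The 10 Toll-like receptor genes Tlr1, Tlr2, Tlr3, Tlr4, Tlr5, Tlr6, Tlr7, Tlr8, Tlr9 and Tlr13 were followed in macrophages sorted from MC38 tumours. They were chosen by symbol as members of one receptor family, with earlier results of these data known. Tlr11 and Tlr12, also of this family, were not in the set and are described at the end. The genes followed are 10 of the 21760 gene symbols listed. All 10 passed the filter on low counts, with 15560 genes tested in all. MC38 is a mouse colon carcinoma line, and its cells either lacked Xkr8 or were wild type. Xkr8 is a membrane scramblase that, once cut by caspases, exposes phosphatidylserine on dying cells.

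The libraries were from KO clone 1 (2 mice), KO clone 2 (2 mice) and WT tumours (2 mice), 1 mouse per library. All 6 tumours had grown under the skin of C57BL6 mice for 16 days with no further treatment. The knockout was in the tumour cells and the macrophages came from the host, so Xkr8 in these libraries is no check of the genotype labels. Its level was 4.70 and 4.14 CPM, the count scaled to library size, in the KO clone 1 libraries, 6.97 and 6.16 CPM in the KO clone 2 libraries, and 6.90 and 6.05 CPM in the WT libraries. Each knockout genotype is a single clone, so the loss of Xkr8 and other traits of a clone cannot be told apart. The labels name no sorting markers.

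Library totals were 37090034 to 40022755 estimated counts in 5 libraries and 20038047 in WT mouse 2. In WT mouse 2 the ribosomal precursor Rn45s took 24.6% of the total, against 1.46% to 7.12% in the others. Its log2 CPM values correlated with those of the other libraries at Pearson r of 0.931 to 0.944 across genes, against 0.980 to 0.995 among the other 5. Every comparison with WT rests on this library and WT mouse 1, and values without each of them are given below. Macrophage genes were abundant throughout, with the sum of 9 markers at 8331 to 9768 CPM in the KO libraries and 8287 and 11776 CPM in the WT libraries.

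Toll-like receptors are membrane proteins that recognise molecules shared by many microbes, and some of them also recognise nucleic acids of dying host cells. Tlr1, Tlr2, Tlr4, Tlr5 and Tlr6 act mainly at the cell surface, where they bind lipoproteins, lipopolysaccharide or flagellin. Tlr3, Tlr7, Tlr8, Tlr9 and Tlr13 sit in endosomes and bind RNA or DNA. Most signal through the adaptor Myd88, while Tlr3 uses Ticam1 and Tlr4 uses both, and the signal ends in NF-kB, interferon regulatory factors and cytokine genes.

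In the mouse genome (GRCm38, GENCODE M21) the members lie on 7 chromosomes. Tlr1 (chr5:64924679-64933563, minus strand) and Tlr6 (chr5:64952031-64960097, minus strand) are neighbours, as are Tlr8 (chrX:167242696-167264329, minus strand) and Tlr7 (chrX:167304929-167330558, minus strand). The others are Tlr5 (chr1:182954788-182976044, plus strand), Tlr2 (chr3:83836272-83841767, minus strand), Tlr4 (chr4:66827584-66930284, plus strand), Tlr3 (chr8:45395665-45411080, minus strand), Tlr9 (chr9:106222598-106226883, plus strand) and Tlr13 (chrX:106143204-106160493, plus strand). Tlr3 overlaps the predicted gene Gm45542 on the other strand, and the labels do not say whether counting used strand.

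Promoter sequences were taken from RefSeq (GRCm38.p6), as the 250 bases before and 50 bases after a start site, for 8 of the 10 members. Tlr4 and Tlr7 had no entry, and Tlr1 and Tlr6 each had more than 1 start site, so 10 promoters were searched. A member is named for a motif if any of its promoters held a match. Of 5 motifs searched on both strands, the interferon regulatory factor core AANNGAAA was in 23.9% of all 32851 promoters of this length and in those of Tlr1, Tlr2, Tlr3 and Tlr6. The longer interferon-stimulated response element was in 3.44% of promoters and among the members in 1 promoter of Tlr6. Each match to it also holds a core match. The PU.1 core GAGGAA was in 28.3% of promoters and in those of Tlr1, Tlr8, Tlr9 and Tlr13; PU.1 is a transcription factor of myeloid cells. The NF-kB motif GGGANTTCC was in 1.68% of promoters and among the members in that of Tlr2. The STAT motif TTCNNNGAA was in 8.3% of promoters and in those of Tlr1, Tlr6 and Tlr8. In Tlr6 it was not in the promoter with the response element. In Tlr1 the PU.1 match was not in the promoter with the other matches. The promoters of 5 members are printed 5′ to 3′ on the gene's strand: Tlr3, Tlr8 and Tlr13, whose levels followed nearly the same order of libraries, Tlr9, whose levels did not, and Tlr2, which had the highest level. Capitals mark matches to any of the 5 motifs, and a match is a description of the letters only.
Tlr3 promoter (chr8:45410331-45410630, minus strand): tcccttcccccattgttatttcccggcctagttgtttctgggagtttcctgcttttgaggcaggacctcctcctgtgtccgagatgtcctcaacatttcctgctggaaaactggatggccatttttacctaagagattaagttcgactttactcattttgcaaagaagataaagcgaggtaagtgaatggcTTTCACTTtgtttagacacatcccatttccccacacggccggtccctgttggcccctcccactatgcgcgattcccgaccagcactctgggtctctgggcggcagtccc
Tlr8 promoter (chrX:167264280-167264579, minus strand): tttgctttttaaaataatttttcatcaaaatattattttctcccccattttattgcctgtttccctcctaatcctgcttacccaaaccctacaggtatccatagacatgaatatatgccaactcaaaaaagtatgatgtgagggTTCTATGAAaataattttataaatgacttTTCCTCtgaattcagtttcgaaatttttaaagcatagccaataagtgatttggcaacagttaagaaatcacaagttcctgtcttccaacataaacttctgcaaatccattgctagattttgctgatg
Tlr13 promoter (chrX:106143025-106143324, plus strand): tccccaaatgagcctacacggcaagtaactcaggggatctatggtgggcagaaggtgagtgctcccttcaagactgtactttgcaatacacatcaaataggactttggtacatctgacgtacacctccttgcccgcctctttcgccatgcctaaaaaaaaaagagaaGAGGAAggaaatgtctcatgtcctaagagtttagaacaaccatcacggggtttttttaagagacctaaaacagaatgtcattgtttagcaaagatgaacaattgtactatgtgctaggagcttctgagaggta
Tlr9 promoter (chr9:106222348-106222647, plus strand): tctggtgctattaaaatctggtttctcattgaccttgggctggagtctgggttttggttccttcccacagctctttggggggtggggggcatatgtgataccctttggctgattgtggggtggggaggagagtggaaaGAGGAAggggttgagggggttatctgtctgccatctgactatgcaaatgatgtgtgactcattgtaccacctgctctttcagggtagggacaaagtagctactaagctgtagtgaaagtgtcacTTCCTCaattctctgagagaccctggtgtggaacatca
Tlr2 promoter (chr3:83841559-83841858, minus strand): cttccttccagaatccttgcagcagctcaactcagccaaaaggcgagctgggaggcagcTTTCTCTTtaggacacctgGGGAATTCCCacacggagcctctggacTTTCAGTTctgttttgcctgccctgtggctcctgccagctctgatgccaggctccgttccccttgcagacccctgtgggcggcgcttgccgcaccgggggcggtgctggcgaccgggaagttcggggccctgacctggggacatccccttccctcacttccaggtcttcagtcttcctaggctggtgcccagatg

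Tlr1 and Tlr6 arose from a common gene and are so alike that sequencing reads can fit both. Of the Tlr1 transcript's 31-base words, 20.1% were also in Tlr6, and of the Tlr6 transcript's 3635 words 607 were in Tlr1, while the other members shared none with another gene except for the overlap of Tlr3 with Gm45542. The longest coding run that is identical in both genes had 229 bases and lies at bases 1468 to 1696 of the Tlr1 coding sequence and 1507 to 1735 of that of Tlr6. It is printed as an example of sequence whose reads could be given to either gene, and other shared stretches are not printed.
Tlr1 and Tlr6 shared run: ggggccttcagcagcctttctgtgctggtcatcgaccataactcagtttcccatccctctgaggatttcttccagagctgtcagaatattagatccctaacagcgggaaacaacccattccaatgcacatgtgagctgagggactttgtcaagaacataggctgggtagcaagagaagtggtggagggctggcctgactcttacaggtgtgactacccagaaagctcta

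Of the 10 members, 9 had a higher level in each of the 4 KO libraries than in either WT library, with Tlr9 the exception. Such a separation held for 12.9% of all genes tested. None of the 10 passed edgeR's quasi-likelihood test at a Benjamini-Hochberg adjusted p under 0.05, which 0.135% of all genes did. At an unadjusted p under 0.05, 9 of the 10 had a higher level in KO libraries, against 6.25% of all genes. A positive log2 fold change was found for 50.2% of all genes. The median log2 fold change of KO over WT was 0.98 for the members and 0.00 for all genes. In sorted but bulk samples, fewer cells of a type and less RNA per cell cannot be told apart.

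**Figure D1:**
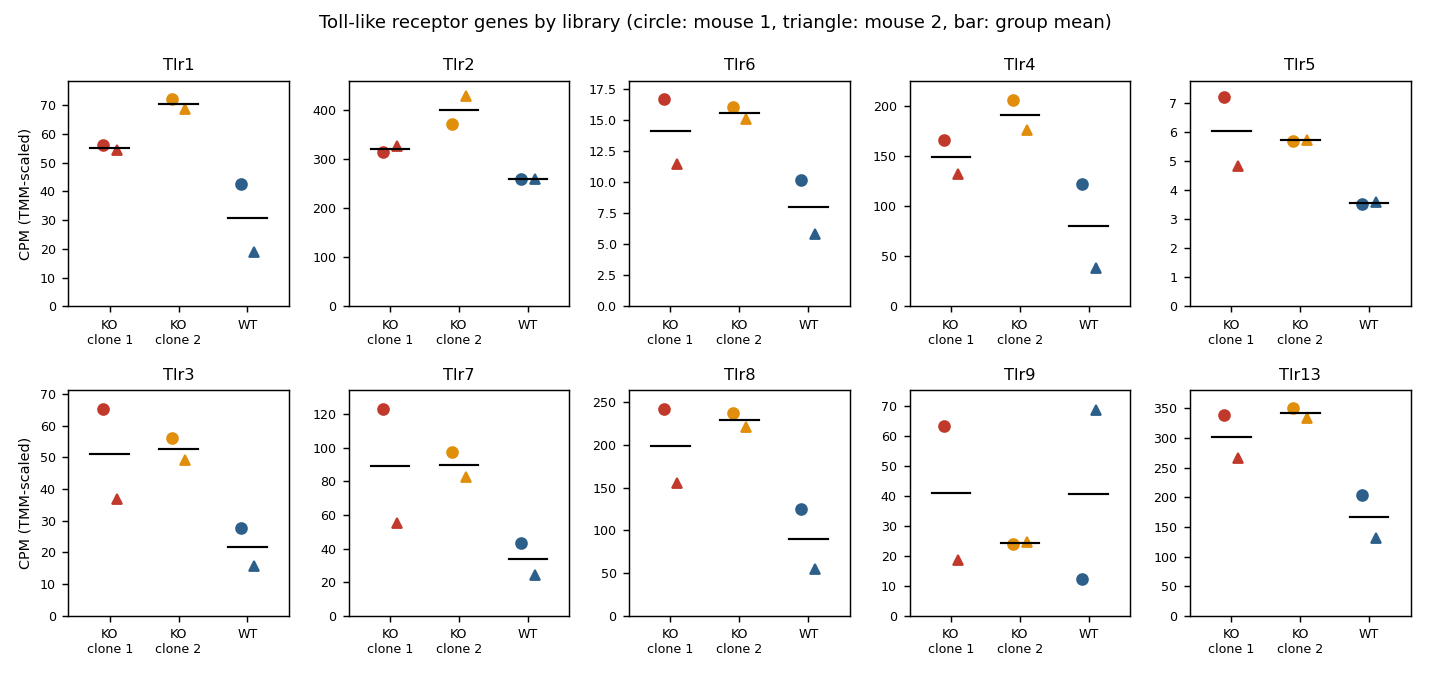
Level of each receptor gene in CPM (vertical axis, linear from 0, a scale of its own in each panel) in macrophages from KO clone 1, KO clone 2 and WT tumours. Circles are mouse 1, triangles mouse 2 and bars group means; in every panel but that of Tlr9 the 4 KO points lie above both WT points.

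Among the surface receptors, Tlr2 pairs with Tlr1 or Tlr6 to bind bacterial lipoproteins. Tlr2 stood at 315 and 327 CPM in KO clone 1, 371 and 429 CPM in KO clone 2, and 260 and 259 CPM in WT libraries. The groups did not overlap, and the WT libraries nearly coincided. The ratio of the KO mean to the WT mean was 1.39, and the log2 fold change was 0.47 ± 0.19 (SE; 95% interval 0.03 to 0.92; edgeR adjusted p = 0.350).

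Tlr1, the partner for triacylated lipoproteins, stood at 56.0 and 54.3 CPM in KO clone 1, 72.0 and 68.6 CPM in KO clone 2, and 42.4 and 18.9 CPM in WT libraries. The WT libraries lay below all KO libraries but differed from each other 2.24-fold, more than the KO libraries did. Its log2 fold change was 1.03 ± 0.33 (SE; 95% interval 0.27 to 1.78; edgeR adjusted p = 0.296). Tlr6, the partner for diacylated lipoproteins, stood at 16.7 and 11.5 CPM in KO clone 1, 16.0 and 15.1 CPM in KO clone 2, and 10.2 and 5.85 CPM in WT libraries. The gap between the lowest KO and the highest WT library was small for Tlr6, and its log2 fold change was 0.87 ± 0.29 (SE; 95% interval 0.21 to 1.54; edgeR adjusted p = 0.307).

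Because Tlr1 and Tlr6 share sequence, the sum of both is the safer level. The sum was 72.7 and 65.8 CPM in KO clone 1, 88.1 and 83.6 CPM in KO clone 2, and 52.6 and 24.8 CPM in WT libraries, so the groups did not overlap for the sum either. Tlr6 made up 17.4% to 23.0% of the sum in KO libraries and 19.4% and 23.6% in WT libraries, and these shares overlapped.

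Tlr4, the receptor for lipopolysaccharide, stood at 167 and 132 CPM in KO clone 1, 206 and 176 CPM in KO clone 2, and 122 and 38.0 CPM in WT libraries. The WT libraries differed 3.22-fold for Tlr4, and WT mouse 1 was close to the lowest KO library. Its log2 fold change was 1.08 ± 0.44 (SE; 95% interval 0.07 to 2.10; edgeR adjusted p = 0.350). Tlr5, the receptor for flagellin, was the least abundant member, at 7.20 and 4.84 CPM in KO clone 1, 5.70 and 5.72 CPM in KO clone 2, and 3.51 and 3.58 CPM in WT libraries. For Tlr5, as for Tlr2, the WT libraries nearly coincided, and its log2 fold change was 0.73 ± 0.25 (SE; 95% interval 0.13 to 1.32; edgeR adjusted p = 0.322).

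Among the endosomal receptors, Tlr7, which binds single-stranded RNA, had the largest log2 fold change of the 10 members. It stood at 123 and 55.4 CPM in KO clone 1, 97.3 and 82.7 CPM in KO clone 2, and 43.2 and 24.3 CPM in WT libraries. The KO clone 1 libraries were the highest and the lowest of the KO libraries, and the lowest was still above WT mouse 1. The log2 fold change was 1.40 ± 0.37 (SE; 95% interval 0.55 to 2.26; edgeR adjusted p = 0.240), with a ratio of means of 2.66.

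Tlr8, the X-linked neighbour of Tlr7 and an RNA sensor in humans, stood at 242 and 156 CPM in KO clone 1, 238 and 221 CPM in KO clone 2, and 125 and 54.8 CPM in WT libraries. Its order of libraries was that of Tlr7, with KO clone 1 mouse 1 highest and WT mouse 2 lowest, and its log2 fold change was 1.25 ± 0.36 (SE; 95% interval 0.43 to 2.08; edgeR adjusted p = 0.269). Tlr3, which binds double-stranded RNA, stood at 65.2 and 36.7 CPM in KO clone 1, 55.9 and 49.2 CPM in KO clone 2, and 27.6 and 15.5 CPM in WT libraries. Its libraries again followed the same order, and the log2 fold change was 1.26 ± 0.32 (SE; 95% interval 0.52 to 1.99; edgeR adjusted p = 0.222).

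Tlr13, which in the mouse recognises bacterial ribosomal RNA, had the smallest p of the 10 members. It stood at 339 and 266 CPM in KO clone 1, 351 and 334 CPM in KO clone 2, and 203 and 131 CPM in WT libraries. All KO libraries were above both WT libraries, and the log2 fold change was 0.94 ± 0.24 (SE; 95% interval 0.39 to 1.49; edgeR adjusted p = 0.218).

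Tlr9, which binds DNA with unmethylated CpG, was the member whose groups overlapped. It stood at 63.1 and 18.7 CPM in KO clone 1, 23.8 and 24.4 CPM in KO clone 2, and 12.1 and 68.7 CPM in WT libraries. One library of KO clone 1 and one of WT were high, and the WT pair held both the lowest and the highest value of all 6 libraries. The log2 fold change was -0.30 ± 0.70 (SE; 95% interval -1.93 to 1.32; edgeR adjusted p = 0.817), an interval that reaches past 1 log2 unit in both directions.

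WT mouse 2 was under 70% of WT mouse 1 for 7 members, within 2% of it for Tlr2 and Tlr5, and above it for Tlr9. Without WT mouse 2 all 10 members were higher in KO, the median log2 fold change was 0.68 and none passed, against 0.174% of all genes. The values were then smaller for Tlr4 (0.45), Tlr1 (0.54), Tlr6 (0.52), Tlr13 (0.64), Tlr8 (0.76), Tlr3 (0.88) and Tlr7 (1.03). Tlr2 (0.45) hardly moved, and Tlr9 turned to 1.39. Without WT mouse 1 the median was 1.55 and 7 members passed (Tlr1, Tlr3, Tlr4, Tlr6, Tlr7, Tlr8 and Tlr13), but so did 37.5% of all genes, with 1 WT library assumed to vary like the KO libraries. In that fit the log2 fold change was 2.18 for Tlr4, 1.98 for Tlr8 and -1.07 for Tlr9. With DESeq2 on all libraries 4 members passed, namely Tlr3 and Tlr7 (adjusted p = 0.00911 each), Tlr13 (adjusted p = 0.0136) and Tlr8 (adjusted p = 0.0230), against 3.21% of all genes.

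**Figure D2:**
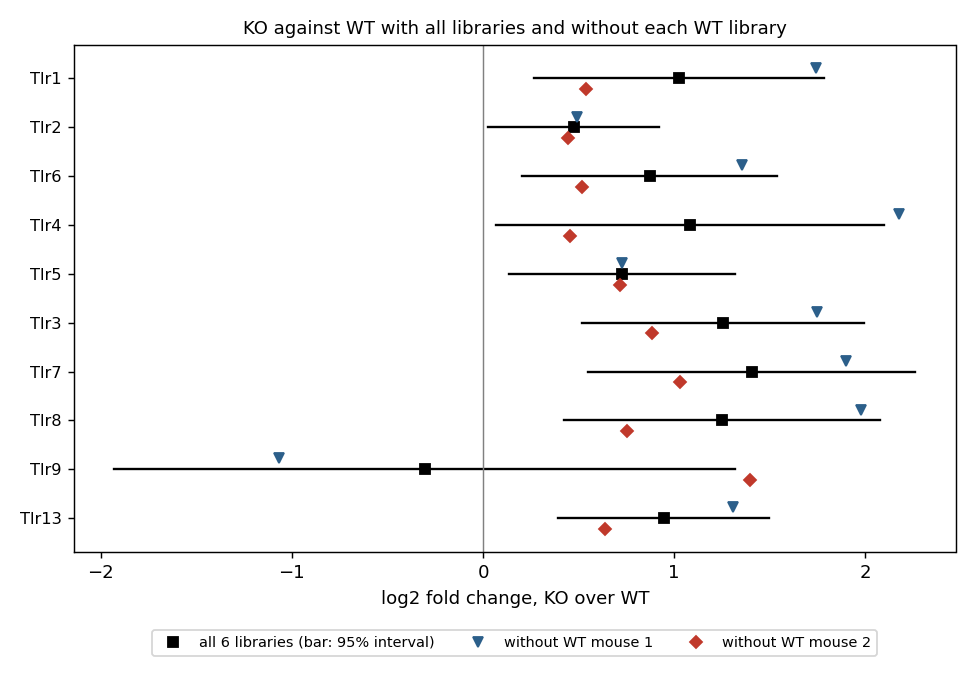
Log2 fold change of KO over WT (horizontal axis) for each receptor gene, with all 6 libraries (black squares, bars are 95% intervals), without WT mouse 1 (blue triangles) and without WT mouse 2 (red diamonds). Tlr9 lies at -1.07 without WT mouse 1 and at 1.39 without WT mouse 2, while the other 9 stay above 0.

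The 5 surface members had a median log2 fold change of 0.87, with values of 0.47 to 1.08. The 5 endosomal members had a median of 1.25, with values of -0.30 to 1.40 and Tlr9 at the low end. The difference between the classes was not tested.

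The clones were then set against the same WT libraries, so their values share the WT pair. In KO clone 1, 9 members had both libraries above both WT libraries, against 17.4% of all genes, and none passed edgeR's test, against 0.00643% of all genes. In KO clone 2, 9 members had both libraries above both WT libraries, against 26.5% of all genes, and none passed, against 0.00643% of all genes. An unadjusted p under 0.05 with a higher level than in WT was reached by 5 members for KO clone 1 and 8 for KO clone 2, against 4.25% and 5.12% of all genes. The member median of the log2 fold change was 0.85 for KO clone 1 and 1.11 for KO clone 2. With DESeq2 no member passed for KO clone 1 and 1 did for KO clone 2 (Tlr13, adjusted p = 0.0429), against 1.74% and 2.99% of all genes. Without WT mouse 1, 7 members passed for KO clone 1 and 8 for KO clone 2, against 34.5% and 40.2% of all genes. Without WT mouse 2 none passed for either clone, against 0.361% and 1.16% of all genes.

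Over WT, Tlr7 had a log2 fold change of 1.40 ± 0.44 (SE) in KO clone 1 and 1.41 ± 0.44 in KO clone 2. Tlr3 had 1.23 ± 0.38 in KO clone 1 and 1.28 ± 0.38 in KO clone 2. Tlr13 had 0.85 ± 0.28 in KO clone 1 and 1.03 ± 0.28 in KO clone 2. For these endosomal receptors the clones lay within 1 standard error of each other. Tlr2 had 0.31 ± 0.21 in KO clone 1 and 0.62 ± 0.21 in KO clone 2, and Tlr9 had 0.03 ± 0.83 in KO clone 1 and -0.74 ± 0.83 in KO clone 2. Adjusted p-values from edgeR over the 10 members were 0.543 to 0.991 for KO clone 1 and 0.311 to 0.657 for KO clone 2.

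**Figure D3:**
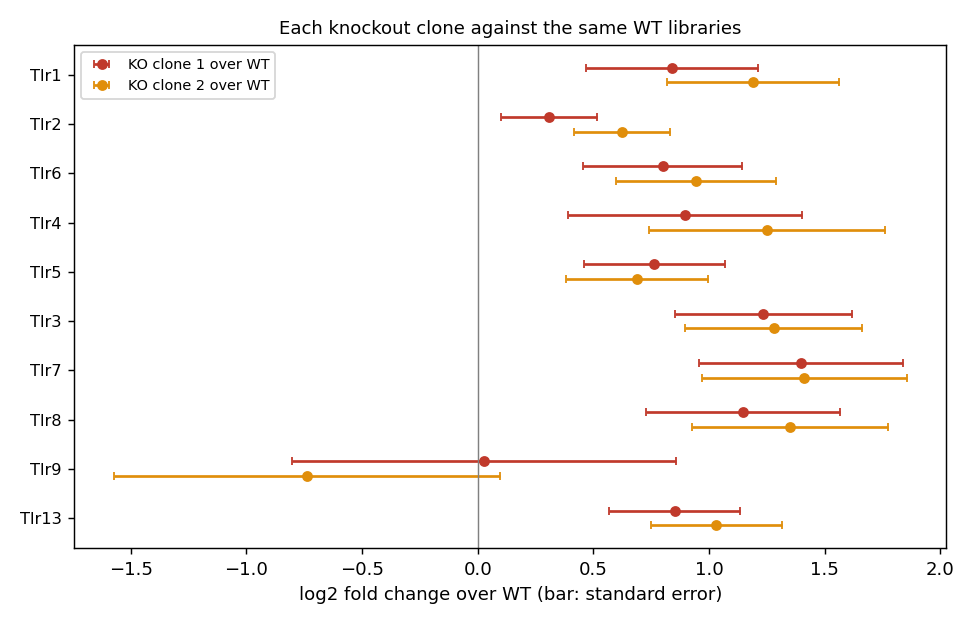
Log2 fold change over WT (horizontal axis, bars are standard errors) of each receptor gene in KO clone 1 (red) and KO clone 2 (orange), both against the same WT libraries. The bars of the clones overlap for every member, and only Tlr9 has a value below 0, in KO clone 2.

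Set directly against each other, KO clone 2 and KO clone 1 gave no member past edgeR's test (adjusted p = 1 for each). No gene of all passed (0%), while 3.23% had an unadjusted p under 0.05, none of the members among them, and DESeq2 called 117 genes. Both libraries of KO clone 2 were above both of KO clone 1 for 3 members (Tlr1, Tlr2 and Tlr4), against 21.8% of all genes. For Tlr1 the log2 fold change of KO clone 2 over KO clone 1 was 0.35, with a 95% interval of -0.53 to 1.23. For Tlr2 it was 0.32 with an interval of -0.18 to 0.81, and for Tlr3 it was 0.05 with an interval of -0.86 to 0.95. For Tlr1 and Tlr2 these intervals hold differences as large as those of either clone over WT, and for Tlr3 the interval stays below its value over WT in either clone.

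The libraries of KO clone 1 lay at both ends of the KO range. KO clone 1 mouse 2 was the lowest KO library for 9 of the 10 members, with Tlr2 the exception, and KO clone 1 mouse 1 was the highest for 6. With all libraries 8 members had a positive log2 fold change of KO clone 2 over KO clone 1, with a median of 0.16. Without KO clone 1 mouse 2 the number was 4 and the median -0.09, and without KO clone 1 mouse 1 it was 10 and the median 0.41.

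Levels were compared between genes as CPM per kilobase of the coding transcript. Tlr2 was the most abundant receptor at 120 ± 17.1 CPM per kilobase in KO libraries (SD, n = 4) and 86.2 ± 0.27 in WT libraries (SD, n = 2). Tlr13 followed at 79.4 ± 9.49 in KO and 41.2 ± 12.5 in WT libraries, Tlr8 at 62.4 ± 11.6 in KO and 26.2 ± 14.4 in WT libraries, and Tlr4 at 41.8 ± 7.47 in KO and 19.7 ± 14.6 in WT libraries. The order Tlr2, Tlr13, Tlr8, Tlr4 held in 6 of 6 libraries.

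Tlr7 was at 23.0 ± 7.23 CPM per kilobase in KO and 8.66 ± 3.43 in WT libraries, and Tlr1 at 20.7 ± 2.93 in KO and 10.1 ± 5.50 in WT libraries. Tlr7 was above Tlr1 in 2 of 6 libraries and Tlr9 above Tlr3 in 2 of 6, so these neighbours had no fixed order. Tlr6 and Tlr5 were lowest in 6 of 6 libraries, at 4.03 ± 0.63 and 1.83 ± 0.31 CPM per kilobase in KO libraries and 2.18 ± 0.84 and 1.11 ± 0.01 in WT libraries. The order by mean level was the same when all exons of a gene were used as its length.

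**Figure D4:**
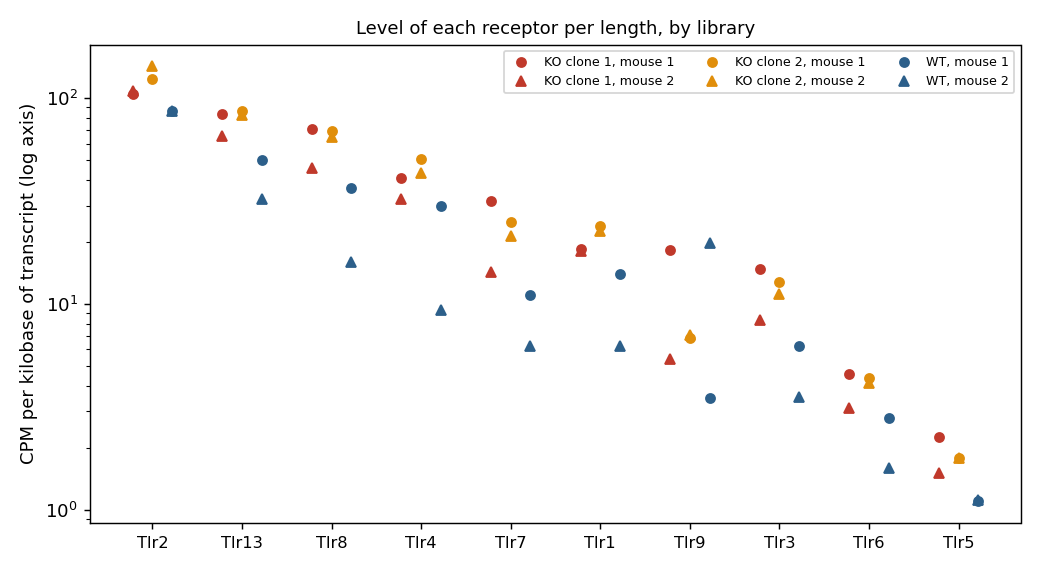
Level of each receptor gene in CPM per kilobase of transcript (vertical log axis), 1 point per library, for KO clone 1, KO clone 2 and WT, genes ordered by mean level. Levels run from Tlr2, with a mean of 108.5 over the 6 libraries, down to Tlr5, with a mean of 1.59.

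Summed over the 10 members, the level was 389 and 302 CPM per kilobase in KO clone 1, 404 and 400 in KO clone 2, and 242 and 182 in WT libraries. The KO libraries were all above the WT libraries in this sum. Endosomal members made up 56.1% and 45.9% of it in KO clone 1, 49.6% and 46.5% in KO clone 2, and 44.4% and 42.8% in WT libraries. The shares in KO libraries were thus above those in WT libraries by a small margin, 45.9% against 44.4% for the nearest pair.

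Across the 6 libraries, log2 CPM of the members other than Tlr9 correlated with each other at Pearson r of 0.69 to 0.998 over 36 pairs, and with Tlr9 at -0.46 to 0.27 over 9 pairs. These points share the libraries and the gap between genotypes. The genes whose log2 CPM was most like that of Tlr13, the member with the smallest p of those higher in KO, were Fam49a, March1 and Ptprc, each with a Pearson r of 0.998 over 6 libraries. Ptprc, which encodes the leukocyte antigen CD45, stood at 1108 and 889 CPM in KO clone 1, 1160 and 1076 CPM in KO clone 2, and 675 and 490.5 CPM in WT libraries.

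For Tlr9 the nearest genes were Dennd1c and Sema4d (r of 0.997 each) and Trim25 (r of 0.991). Sema4d, a semaphorin of immune cells, stood at 225 and 121 CPM in KO clone 1, 130.02 and 143 CPM in KO clone 2, and 91.4 and 242 CPM in WT libraries. Trim25, a ubiquitin ligase of the RNA-sensing pathway, stood at 161 and 104 CPM in KO clone 1, 106 and 107 CPM in KO clone 2, and 76.7 and 173 CPM in WT libraries. Both were highest in the same pair of libraries as Tlr9. Cd180, a relative of Tlr4 that lacks a signalling domain and was picked after its values were seen, stood at 121 and 33.1 CPM in KO clone 1, 33.3 and 31.1 CPM in KO clone 2, and 24.0 and 76.6 CPM in WT libraries.

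**Figure D5:**
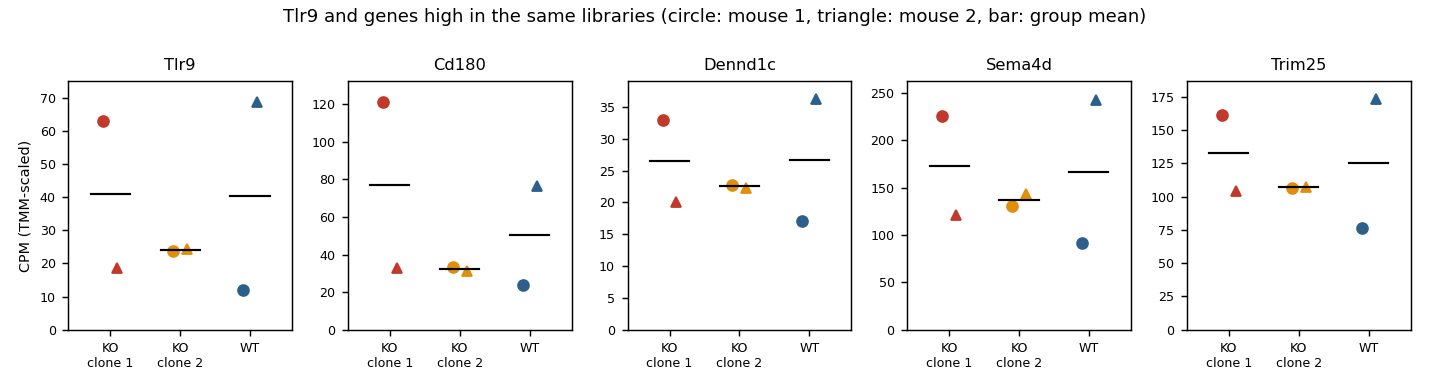
Level in CPM (vertical axis, linear from 0) of Tlr9, Cd180, Dennd1c, Sema4d and Trim25 in KO clone 1, KO clone 2 and WT libraries; circles are mouse 1, triangles mouse 2 and bars group means. In each panel KO clone 1 mouse 1 and WT mouse 2 are the highest points, as with Tlr9 at 63.1 and 68.7 CPM.

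The rest of the pathway was described from lists of genes with known roles. Of the 10 co-receptors and ligand-delivery genes, 0 passed for KO over WT in either direction, 6 had a positive log2 fold change and the median was 0.17. Ly86, the partner of Cd180, had the smallest p of this list, with a log2 fold change of 1.07 ± 0.54 (SE). It stood at 275 to 362 CPM in KO and 253 and 52.4 CPM in WT libraries, with WT mouse 1 close to the lowest KO library. Ly96, which holds lipopolysaccharide on Tlr4, stood at 11.2 and 11.04 CPM in KO clone 1, 13.6 and 13.03 CPM in KO clone 2, and 10.1 and 2.06 CPM in WT libraries, so that WT mouse 2 was the low one, as for Tlr4.

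Of 14 chaperones and endosomal processing genes 0 passed, 6 were positive and the median was -0.02. Ctss, a protease that cleaves endosomal receptors, had the smallest p of this list, with a log2 fold change of 0.61 ± 0.24 (SE). Unc93b1, which carries the endosomal receptors to their compartment, stood at 0.00 ± 0.23. Of 16 adaptors and proximal kinases 0 passed, 8 were positive and the median was -0.01. The smallest p of this list were those of Tab1, a partner of the kinase Map3k7, at -0.85 ± 0.25, and of Peli1, a ubiquitin ligase, at 0.75 ± 0.22. The adaptor Myd88 stood at 0.19 ± 0.19 and Ticam1 at -0.59 ± 0.25. Ticam1 overlapped between the groups, at 13.3 to 18.3 CPM in KO and 17.1 and 27.7 CPM in WT libraries. Among 20 inhibitors of the pathway the smallest p was that of Zc3h12a, an RNase that destroys cytokine transcripts, at -1.17 ± 0.48. Zc3h12a stood at 22.6 to 34.3 CPM in KO and 23.6 and 102 CPM in WT libraries, so only WT mouse 2 lay apart. Of these inhibitors 0 passed, 8 were positive and the median was -0.09. These medians lay close to the 0.00 of all genes, where the receptors had 0.98. DESeq2 called none of these genes either. Without WT mouse 2 the medians were 0.28 for co-receptors, 0.11 for chaperones, 0.14 for adaptors and 0.23 for inhibitors, so the signs of the last 3 turned, and none of their genes passed. Without WT mouse 1 the medians were 0.14 for co-receptors, -0.13 for chaperones, -0.19 for adaptors and -0.39 for inhibitors. In that fit 5, 4, 9 and 9 genes of these lists passed, 8 of the 9 inhibitors lower in KO, beside 37.5% of all genes.

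Of 19 downstream kinases and transcription factors 0 passed, 13 were positive and the median was 0.18. Irf7, the interferon regulatory factor that acts below Tlr7 and Tlr9, had the smallest p of this list, at 654 and 511 CPM in KO clone 1, 511 and 487 CPM in KO clone 2, and 174 and 209 CPM in WT libraries. Its groups were far apart, and the log2 fold change was 1.497 ± 0.212 (SE; edgeR adjusted p = 0.0561). Of 22 target cytokines, chemokines and enzymes tested 0 passed, 17 were positive and the median was 0.84. DESeq2 called 1 gene of the downstream list, Irf7, and 7 targets, Ccl5, Cd80, Cd86, Cxcl9, Cxcl10, Il12b and Ptgs2, all higher in KO, against 3.21% of all genes.

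Cxcl10, an interferon-induced chemokine for T cells, stood at 273 and 256 CPM in KO clone 1, 265 and 231 CPM in KO clone 2, and 122 and 119 CPM in WT libraries. Its groups did not overlap, and the log2 fold change was 1.08 ± 0.17 (SE; edgeR adjusted p = 0.0638). Il12b, a subunit of interleukin 12, stood at 4.36 and 4.11 CPM in KO clone 1, 6.89 and 5.27 CPM in KO clone 2, and 1.41 and 1.58 CPM in WT libraries, with a log2 fold change of 1.79 ± 0.33 (SE; edgeR adjusted p = 0.101). Without WT mouse 2 the target list had a median of 0.67, with 1 gene, the chemokine gene Ccl5, passing, against 0.174% of all genes. Without WT mouse 1 it had a median of 0.98, with 12 genes passing, all higher in KO, against 37.5% of all genes.

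Markers of several other cell types had higher summed levels in KO libraries. All 9 monocyte markers had a positive log2 fold change of KO over WT, against 50.2% of all genes. Past the test were 2, Ly6c2 and Ms4a4c, against 0.135% of all genes. The sum of the 9 was 1384 to 1675 CPM in KO and 858 and 429 CPM in WT libraries. Vcan (0.04 ± 0.27, SE) overlapped between the groups, at 196 to 250 CPM in KO and 287 and 151 CPM in WT libraries. F13a1 overlapped too, at 127 to 253 CPM in KO and 147 and 106 CPM in WT libraries. All 10 T and NK cell markers were higher, with 3 past the test (Cd2, Cd3g and Klrk1) and a sum of 96.4 to 184 CPM in KO and 20.4 and 29.2 CPM in WT libraries. Of 9 conventional dendritic cell markers 7 were higher, with 1 past the test (Dpp4). Their sum was 41.2 to 57.9 CPM in KO and 24.3 and 33.5 CPM in WT libraries. Clec9a and Batf3 had negative log2 fold changes, -0.22 and -0.95, and overlapped between the groups. Clec9a stood at 2.40 to 4.48 CPM in KO and 2.33 and 5.23 CPM in WT libraries. For Batf3 the levels were 4.51 to 5.29 CPM in KO and 3.45 and 15.2 CPM in WT libraries. Of 7 neutrophil markers tested 6 were higher and none passed. The sum over all 8 was 56.3 to 74.8 CPM in KO and 40.1 and 38.9 CPM in WT libraries. Csf3r made up 44.8 to 61.6 CPM of it in KO and 26.3 and 25.9 CPM in WT libraries. Cxcr2 was lower in KO, at 6.08 to 8.87 CPM against 11.9 and 12.9 CPM in WT libraries. S100a8 was under 1 CPM in every library. Of 4 endothelial markers tested 4 were higher and none passed, with a sum over all 5 of 46.2 to 60.0 CPM in KO and 21.3 and 26.0 CPM in WT libraries. Pecam1 made up 33.9 to 42.9 CPM of this sum in KO and 13.02 and 14.9 CPM in WT libraries. Kdr overlapped between the groups, at 7.10 to 14.7 CPM in KO and 7.29 and 9.15 CPM in WT libraries, and Cdh5 overlapped too. Emcn and Cldn5 were under 1 CPM in every library. The part of these cells in the receptor levels was not tested.

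Fibroblast markers summed to 2356 to 3871 CPM in KO and 4084 and 11931 CPM in WT libraries, so WT mouse 2, which was well below WT mouse 1 for 7 receptors, had the highest sum. Col3a1 made up 11320 CPM of that sum, while Dcn, another fibroblast marker, was lowest in WT mouse 2, at 127 CPM. Of the 6 fibroblast markers 3 were higher in KO and none passed, and their part in the receptor levels was not tested. For Tlr9, which B cells and plasmacytoid dendritic cells also express, Pax5 was at or near 0 in every library and Siglech stood at 0.577 to 0.966 CPM in KO and 0.835 and 0.894 CPM in WT libraries. The 7 B cell markers summed to 9.30 to 14.4 CPM in KO and 7.71 and 5.09 CPM in WT libraries. Cd79b made up 7.76 to 12.3 CPM of this sum in KO and 4.68 and 3.10 CPM in WT libraries. The 7 plasmacytoid dendritic cell markers summed to 570 to 664 CPM in KO and 421 and 863 CPM in WT libraries. WT mouse 2 was highest in this sum, as it was for Tlr9. In WT mouse 2 Bst2, which other cells also express, made up 532 CPM of the sum, Irf8 247 CPM and Tcf4 79.7 CPM. Ccr9 was lowest in WT mouse 2, at 1.17 CPM against 3.43 CPM in WT mouse 1 and 1.63 to 2.81 CPM in KO libraries.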

How the data were processed

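Per the labels, libraries were built from total RNA of sorted macrophages with rRNA depletion and TruSeq reagents. The authors deposited estimated counts per gene symbol; the submitters' processing notes name Salmon 0.7.2 and mm10. Neither the division of shared reads nor the use of strand is given in the sources used here. Symbols of 93.9% of rows matched GENCODE M21 on GRCm38, the source of positions.

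The estimated counts, deposited as whole numbers, were tested with edgeR 4.0.16 (R 4.3.3), quasi-likelihood, after filterByExpr (minimum count 10, minimum total 15) and TMM scaling. Genotype was fitted with 2 levels, and clones in a fit with 3 groups that share 1 spread. P-values were adjusted over all 15560 genes. The labels give separate mice, and libraries of 1 group were no copies (chi-square per degree of freedom 80.5 to 860). Alternatives were RLE factors, DESeq2 1.42.0, limma-voom (limma 3.58.1), other filters, removal of Rn45s, the mouse number as a block, the mean of the clones, and leaving out each library. All 10 members were named whatever their values, and in each pathway list the genes with the smallest p; genes like Tlr13 and Tlr9 were those with the highest Pearson r among genes of at least 5 CPM. Unc93b1, Myd88, Ticam1, Ly96, Cd180 and marker examples outside this rule were named for their role or after their values were seen. The members and lists were chosen with earlier results of these data known.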

Additional observations from a re-analysis of the deposited data

Results flagged for a closer look

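Tlr9 stood at 63.1 CPM in KO clone 1 mouse 1, far from the other 3 KO libraries, at 18.7 to 24.4 CPM. The gap to the nearest of them was 0.870 of the whole range, above Dixon's critical value for a group of 4. Chance marks about 1 in 20 groups in this way, and the 4 KO libraries were examined for all 10 receptors. The other 9 receptors had no such library.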

How the results depend on the processing

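For KO over WT the members other than Tlr9 kept a positive log2 fold change under all 14 alternatives, and Tlr9 turned to 0.19 with limma-voom and ranged from -1.07 (without WT mouse 1) to 1.39 (without WT mouse 2). Genes past the threshold numbered 21, against 499 with DESeq2 (4 members), 111 with no filter, 1 for the mean of the clones, and 1 to 6020 when leaving out a library (0 to 7 members). For KO clone 1 over WT (1 gene) they numbered 271 with DESeq2, 123 with no filter, 0 with at least 5 CPM in 2 libraries, and 0 to 5535 when leaving out a library (0 to 7 members). For KO clone 2 over WT (1 gene) they numbered 9 with RLE factors, 465 with DESeq2 (1 member, Tlr13), 229 with no filter, 0 with the stricter filter, 8 without Rn45s, and 0 to 6445 when leaving out a library (0 to 8 members). Between clones (0 genes) they numbered 117 with DESeq2, 53 with no filter and 0 to 87 when leaving out a library, and 4 to 10 members were then positive. Among the fits that left out a library, the highest counts came without WT mouse 1, and between clones without WT mouse 2. The cause of these shifts was not tested.

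Mice of equal number did not deviate together (r of -0.25 to 0.22), so the number was not taken as a pairing. With it as a block 15 genes passed for KO over WT, 0 for each clone over WT and 0 between clones, with no member among them.

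Tlr9 in KO clone 1 over WT turned to -0.0037 with DESeq2 and -0.0197 with the stricter filter; when leaving out a library it ranged from -1.09 to 1.72, below 0 without WT mouse 1 (-0.73) or KO clone 1 mouse 1. In KO clone 2 over WT it ranged from -1.50 (without WT mouse 1) to 0.97 (without WT mouse 2). Between clones Tlr7 turned to -0.0096 with the stricter filter. When leaving out a library, values between clones ranged from -0.10 to 0.44 for Tlr6, -0.33 to 0.24 for Tlr5, -0.31 to 0.52 for Tlr3, -0.44 to 0.70 for Tlr7, -0.0741 to 0.56 for Tlr8 and -1.39 to 0.37 for Tlr9; the libraries that turned a sign were those of KO clone 1 and KO clone 2 mouse 1. With 2 WT libraries, 1 of lower depth, no member reached the threshold with edgeR on all libraries.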

Other observations

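Tlr11 and Tlr12, the remaining mouse receptors of the family in the table, recognise the protozoan protein profilin. Tlr11 stood at 1.84 and 1.302 CPM in KO clone 1, 3.10 and 2.67 CPM in KO clone 2, and 0.549 and 0.413 CPM in WT libraries. Its groups did not overlap, and the log2 fold change of KO over WT was 2.17 ± 0.49 (SE; edgeR adjusted p = 0.168). Tlr12 stood at 15.1 and 17.4 CPM in KO clone 1, 28.002 and 23.2 CPM in KO clone 2, and 17.1 and 36.7 CPM in WT libraries, with overlapping groups and a log2 fold change of -0.36 ± 0.36 (SE; edgeR adjusted p = 0.595).

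Ifnb1, which encodes interferon beta, a product of Tlr3 and Tlr4 signalling, had separate levels in the clones. Both libraries of KO clone 2 were below both of KO clone 1, which held for 22.7% of all genes. It stood at 0.890 and 0.409 CPM in KO clone 2 and 4.799 and 4.11 CPM in KO clone 1, beside 3.71 and 5.78 CPM in WT libraries. The log2 fold change of KO clone 2 over KO clone 1 was -2.78 ± 0.48 (SE) and did not pass the test (edgeR adjusted p = 0.352). Over WT it was -2.85 ± 0.48 (SE) in KO clone 2 (edgeR adjusted p = 0.144). In KO clone 1 the value over WT was -0.08 ± 0.44 (SE, edgeR adjusted p = 0.950). Ifnb1 was chosen after its values were seen.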
